A study of Phyllotreta striolata with 15 samples.

Results

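Pupae were compared with larvae of Phyllotreta striolata, the striped flea beetle, a pest of cabbage and its relatives. Libraries were assigned to the stages by their labels: 3 pupal libraries against 3 larval libraries, 6 of the 15 libraries in the series. All were made from the total RNA of whole bodies. The age, sex and number of animals behind each are not stated in the labels. The other 9 libraries, from eggs, male adults and female adults, entered the statistical fit, where they help to estimate the spread between libraries, and served to describe where the genes that changed were otherwise used. Larva replicate 1 stood apart from the other 2 larval libraries in rank correlation and in the genes detected, so the main counts, sizes of change and abundances are given with all libraries and again without it.

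Flea beetles undergo complete metamorphosis. The larva lives in soil, feeds on roots and grows through moults. The pupa does not feed: most larval tissues are broken down or remodelled, while wings, legs, compound eyes, flight muscle, adult cuticle and gonads are built, under the control of the moulting hormone ecdysone and the withdrawal of juvenile hormone. The deposited tables do not pair their gene identifiers with names, so genes are described by level, by size of change and by the stages that used them, and no pathway could be followed. In whole bodies, fewer cells of a type and less RNA per cell cannot be told apart.

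Pupal libraries held 29280435 to 32598781 counts and larval libraries 16509113 to 29806307, with larva replicate 1 the smallest. Pupal libraries were close to each other, with a median difference per gene of 0.14 to 0.22 on the log2 scale over 6489 genes that averaged at least 10 CPM in both stages. CPM is a gene's count per 1000000 counts of its library, here after TMM scaling, which corrects for differences in composition between libraries. The same median was 0.76 to 0.97 between a pupal and a larval library. Between larval libraries it was 0.30 for replicates 1 and 2, 0.51 for replicates 1 and 3 and 0.38 for replicates 2 and 3, so by this measure replicate 3 was the most distant. By Spearman's rank correlation over 11440 genes, larva replicate 1 reached 0.852 and 0.821 with the other larval libraries, which reached 0.958 with each other. Pupal columns carry another name prefix than larval and adult columns, and what a prefix marks is not stated, so effects of prefix and stage cannot be told apart.

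In these libraries counts were spread over more genes in pupae than in larvae. On library totals without TMM, in pupae 10207, 10286 and 10295 genes reached 1 CPM, against 10101, 9215 and 9510 in larva replicates 1, 2 and 3. The stages did not overlap, and larva replicate 1 lay nearest to the pupae. In the pupal libraries the 489 to 592 most abundant genes made up 50% of the counts, while 269 to 335 genes did so in the larval libraries. The 10 most abundant genes took 6.11% to 7.78% of pupal and 8.88% to 10.6% of larval counts. Genes at or above 1000 CPM numbered 115 to 123 in pupae and 151 to 165 in larvae. Each of these measures separated the stages completely, and the two-sided exact permutation p was 0.1, the smallest that 3 libraries against 3 allow, also after adjustment over the 8 measures computed. Without larva replicate 1 the mean difference in genes at 1 CPM was 900.2 in place of 654 genes, and that in genes needed for 50% of the counts was 232 in place of 243.

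**Figure D1:**
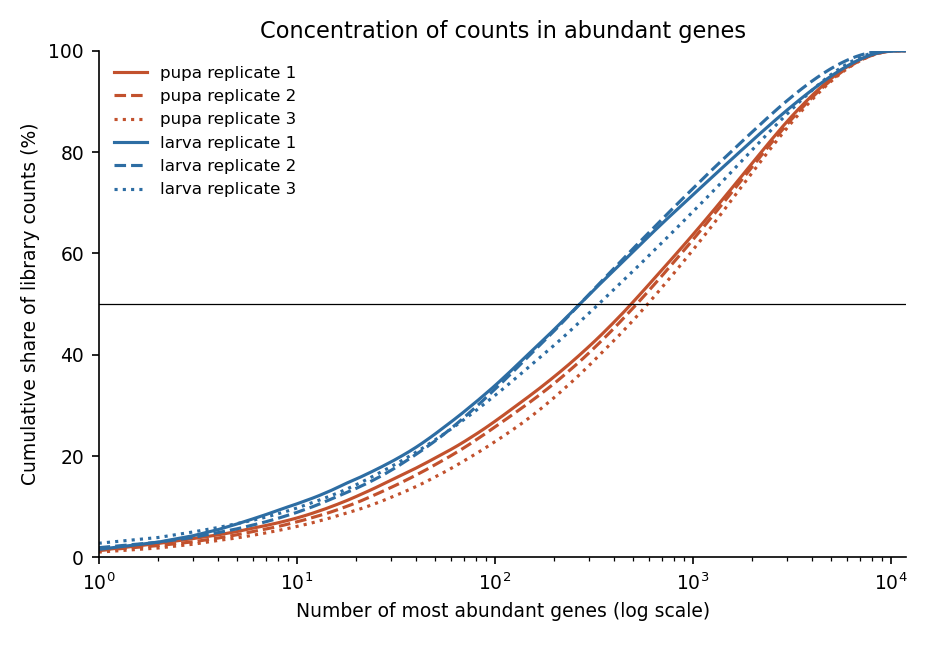
Cumulative share of a library's counts (%, vertical) against the number of most abundant genes added up (horizontal, log scale), 1 curve for each pupal (red) and larval (blue) library; the horizontal line marks 50%. The pupal curves cross the line at 489 to 592 genes and the larval curves at 269 to 335.

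The most abundant genes of the stages were largely different. Of the 100 genes with the highest mean CPM in pupae, 26 were also among the 100 highest in larvae, or 28 when larva replicate 1 was left out. Any pair of pupal libraries shared 80 to 89 of their 100 most abundant genes. Larva replicates 1 and 2 shared 84, replicates 1 and 3 shared 68 and replicates 2 and 3 shared 72, so larva replicate 1 did not stand apart among the most abundant genes. A pupal and a larval library shared 21 to 36. The 100 pupal genes took 22.4% to 26.5% of pupal counts, against 10.5% to 14.9% of larval counts. The 100 larval genes took 10.03% to 10.7% of pupal counts, against 29.7% to 33.3% of larval counts. By the authors' mean TPM, which is a level per transcript length, 42 of the 100 most abundant genes were shared, so the overlap depends on the scale of abundance.

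Of 11440 genes tested, 4654 (40.7%) were called different between pupae and larvae by edgeR's quasi-likelihood test, at a Benjamini-Hochberg adjusted p under 0.05 and a fold of at least 2. Those called higher in pupae numbered 2328 (20.3%) and those called lower 2326 (20.3%). The other 422 genes of the table had too few counts to be tested. Without larva replicate 1, 5400 of 11508 genes (46.9%) were called, 3203 higher (27.8%) and 2197 lower (19.1%). Genes called higher therefore made up 50.02% of the calls with all libraries and 59.3% without larva replicate 1. With all libraries this share was 45.1% with DESeq2 size factors, 56.1% with library size alone and 43.8% with only the 6 pupal and larval libraries, so which direction held more calls depended on these choices. By the DESeq2 Wald test without larva replicate 1 it was 53.5%. The median of all genes lay at a log2 change of 0.15 with TMM scaling, 0.04 with DESeq2 size factors and 0.33 with library size alone, so the sign of a change of this size depends on the scaling.

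**Figure D2:**
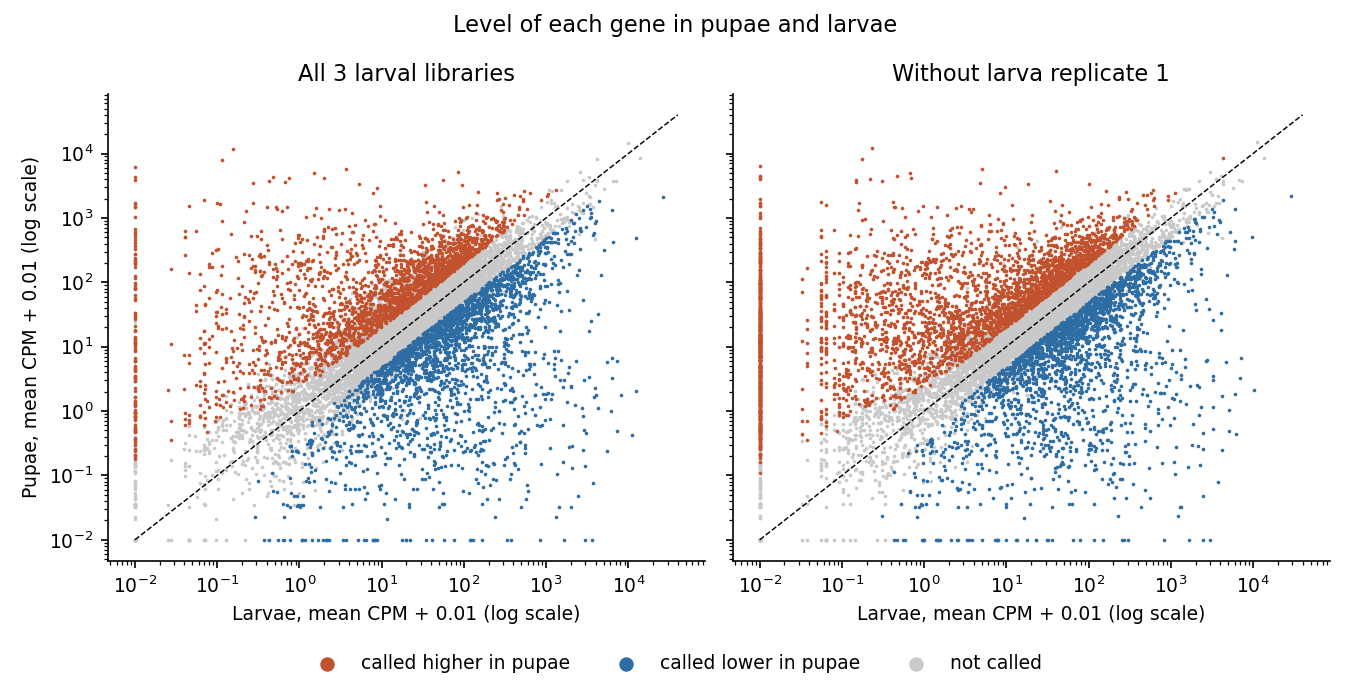
Mean CPM of each tested gene, scaled by TMM, in pupae (vertical) and larvae (horizontal), both on log scales with 0.01 added, with all larval libraries (left) and without larva replicate 1 (right); red points were called higher in pupae, blue points lower, grey points neither. Red points number 2328 on the left and 3203 on the right, many of the added ones at or near 0 in larvae, while blue points number 2326 and 2197.

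The called genes carried much of the RNA of each stage. Genes called higher in pupae took 43.8% to 46.3% of pupal counts, against 4.98% to 8.23% of larval counts. Genes called lower took 7.92% to 8.99% of pupal counts, against 47.0% to 57.6% of larval counts. These shares describe the calls and are no test of them, since the same libraries made the calls. Larva replicate 1 took no part in the calls made without it, but larva replicates 2 and 3 did, so their shares are not like values. Larva replicate 1 held 8.31% of its counts in the genes called higher in pupae without it, where larva replicates 2 and 3 held 5.87% and 7.81%. In those called lower it held 55.5%, against 53.0% and 45.8%.

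How many genes were far higher in pupae depended on larva replicate 1. With all libraries, 844 genes were at least 8-fold higher in pupae and 896 at least 8-fold lower, and without larva replicate 1 these numbers were 1624 and 859. Changes of 64-fold or more numbered 335 upwards and 345 downwards with all libraries, against 813 and 339 without that library. In these sizes, a gene with no count in one stage was set at its lower bound, computed as if all libraries of that stage together had held 3 counts. The bound uses the mean CPM of the other stage and not its spread. The median log2 change of genes called higher was 2.34 with all libraries and 3.04 without larva replicate 1. For genes called lower it was -2.33 and -2.33. Among called genes with no count in larvae, 113 were found with all libraries and 550 without larva replicate 1, and called genes with no count in pupae numbered 44 and 43.

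**Figure D3:**
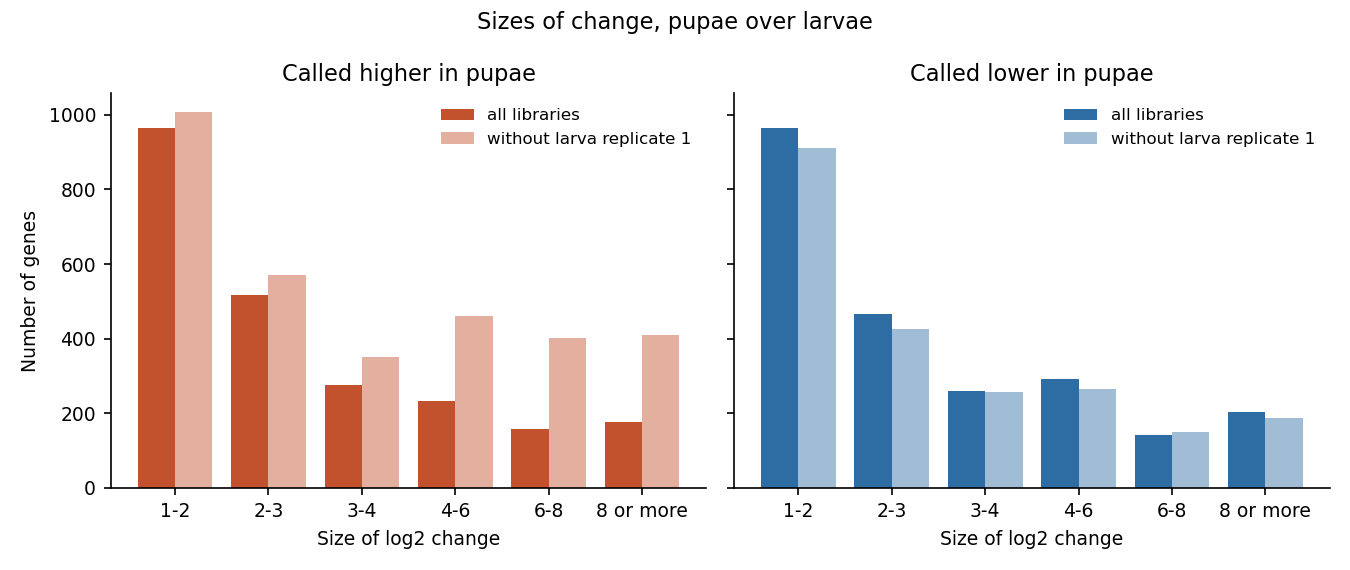
Number of genes (vertical) by the size of their log2 change between pupae and larvae (horizontal), called higher in pupae (left, red) and called lower (right, blue), with all libraries (dark bars) and without larva replicate 1 (pale bars). Genes with no count in one stage are at their lower bound; the pale bars exceed the dark ones most at log2 changes of 4 or more on the left, and the bars on the right are nearly even. 1 gene called higher without larva replicate 1 had a bound below a log2 change of 1 and is not shown.

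Genes called both with and without larva replicate 1 had similar sizes of change in the fits. This follows in part from the choice, since both fits had to call them and share most libraries. The 2093 genes called higher with and without larva replicate 1 had a median log2 change of 2.44 and 2.42 in the fits with and without it. The 2139 genes called lower in both fits had medians of -2.48 and -2.39. A further 1110 genes were called higher without larva replicate 1 and not with it, and 1102 of these had been tested in both fits. The library medians of the 1102 are a description, since a high value in larva replicate 1 is largely what brought them into this set. They were 22.4, 14.6 and 14.3 CPM in pupae, against 26.1 CPM in larva replicate 1 and 0.09 and 0.11 CPM in larva replicates 2 and 3. Larva replicate 1 was above both other larval libraries in 1091 of them, and above the highest pupal library in 525. Medians of these genes were 23.6 to 44.1 CPM in male adult libraries, 0.15 to 0.29 CPM in female adult libraries and 0.23 to 0.37 CPM in egg libraries. All male adult libraries held 1065 of them at 1 CPM or more, and all female adult libraries 319. Of the 2328 genes called higher with all libraries, 84.7% and 78.6% reached this level in every male and every female adult library. No gene was called in opposite directions by the fits with and without larva replicate 1.

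The departure of larva replicate 1 ran one way. In each gene called without it and tested in both fits, the library was placed on the log2 scale between larva replicates 2 and 3, set at 0, and the pupal mean, set at 1. For the 3195 genes called higher in pupae, its median position was 0.09, with quartiles of -0.14 and 0.94, and 1145 genes (35.8%) lay nearer to the pupae than to the other larvae. For the 2194 genes called lower, its median position was -0.10, and 82 genes (3.74%) lay nearer to the pupae. Larva replicates 2 and 3 were placed in the same way among the genes called without each of them. Of genes called higher, 2.72% and 11.2% lay nearer to the pupae, and the median positions were 0.003 and 0.13. Of genes called lower, 4.62% and 18.4% did, and the medians were -0.04 and 0.23. By its medians larva replicate 3 thus lay nearer to the pupae than larva replicate 1 did. Those fits still held larva replicate 1, so the sets of genes are not alike. In 576 genes larva replicate 1 had at least 10 CPM where larva replicates 2 and 3 both had under 1 CPM. Of these, 331 had at least 10 CPM in every pupal library and 496 in every male adult library, and 492 were under 1 CPM in every female adult library. In no gene was the reverse seen, with larva replicates 2 and 3 at 10 CPM or more and larva replicate 1 under 1 CPM. Genes that were high in male adults and low in female adults thus moved with this library, and their part in the difference was not tested.

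**Figure D4:**
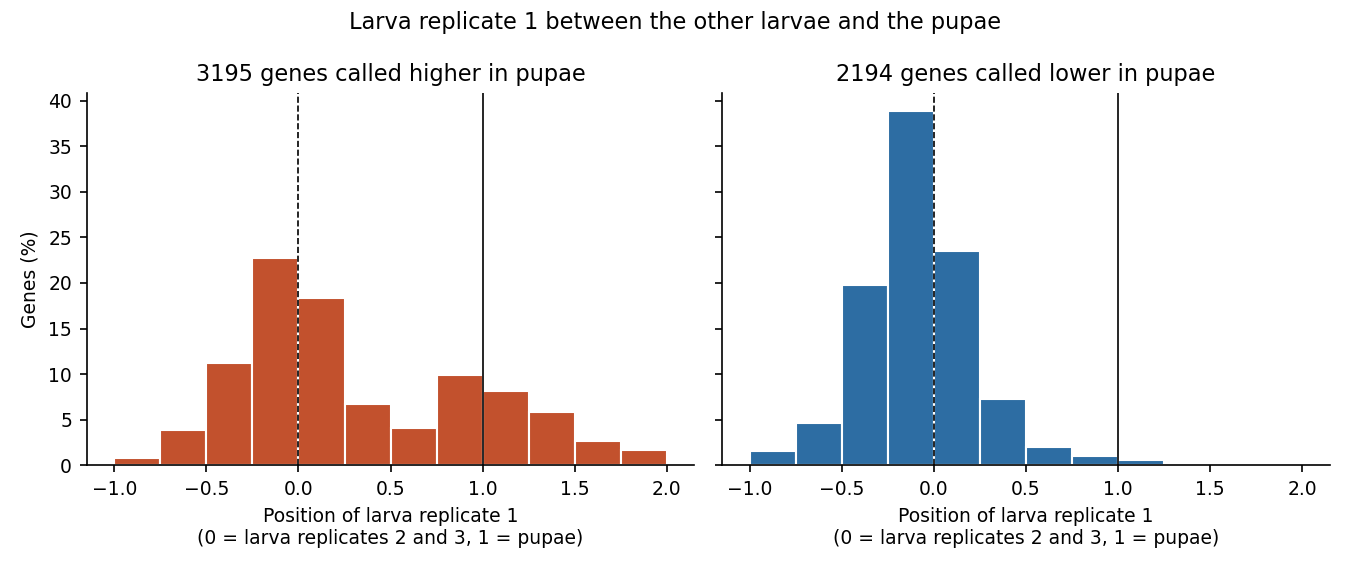
Share of genes (%, vertical) by the position of larva replicate 1 on the log2 scale (horizontal), where 0 (dashed line) is the mean of larva replicates 2 and 3 and 1 (solid line) the mean of pupae, for genes called higher (left) or lower (right) in pupae without that library. On the left the genes form a group around 0 and a smaller one around 1, and on the right a single group around 0; positions below -1 (0.469% left, 0.684% right) and above 2 (3.47% left, 0% right) are not shown.

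Genes that were switched on or off between the stages were counted on library totals without TMM. A gene was taken as on at 1 CPM or more in every library of a stage and as off below 0.1 CPM in every library of the other. With all libraries, 85 genes were on in pupae and off in larvae, and 55 were off in pupae and on in larvae. The 85 took 2.68% to 3.02% of pupal counts, and 43 of them reached 1 CPM in no egg or adult library. The 55 took 1.42% to 1.82% of larval counts. Of these, 28 were on in all female adult libraries, 19 in all male adult libraries and 3 in all egg libraries, and 17 reached 1 CPM in no egg or adult library.

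Leaving out larva replicate 1 raised the genes on in pupae and off in larvae to 517, while the genes off in pupae numbered 59. The 517 took 4.71% to 6.44% of pupal counts, 1.17% of the counts of larva replicate 1, and 2.57% to 4.40% of male adult against 0.479% to 0.791% of female adult counts. At 1 CPM or more, 430 of them were found in every male adult library and 37 in every female adult library. For 372 genes, every male adult library was at 1 CPM or more and every female adult library below it. Larva replicate 1 itself held 393 of the 517 at 1 CPM or more, and its median over all 517 was 12.2 CPM. Of the 59 genes off in pupae and on in larva replicates 2 and 3, 55 reached 1 CPM in larva replicate 1.

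The share of genes called was highest among the most abundant genes, although a change is harder to resolve at low counts. Of the 686 tested genes that averaged under 1 CPM over both stages, 22.4% were called, and of the 5915 genes between 10 and 100 CPM, 38.9% were. These shares were 31.3% of 834 and 45.1% of 5740 genes without larva replicate 1. With all libraries, called genes under 1 CPM had median log2 changes of 3.64 and -3.38, against 2.07 and -2.13 between 10 and 100 CPM. Among the 170 genes at 1000 CPM or more, 67.1% were called: 35 were higher in pupae, with a median log2 change of 6.16, and 79 were lower, with a median of -3.99. The most abundant class held 172 genes without larva replicate 1, of which 38 were higher and 75 lower. Below 10 CPM that library mattered more. Between 1 and 10 CPM, 17.04% of genes were called higher with all libraries and 31.7% without it, and 16.6% and 15.5% were called lower.

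Some genes were bounded to a small change. For 1962 genes (17.2% of those tested) the 95% interval of the log2 change lay between -1 and 1, which bounds the change below 2-fold, and for 1571 of them this also held without larva replicate 1. A further 4824 genes (42.2%) were neither called nor bounded in this way, so whether their change reached 2-fold was not resolved at this spread. Some of them had an adjusted p under 0.05 with a fold under 2. Without larva replicate 1, 4355 genes (37.8%) were neither called nor bounded. The median reach of the interval to either side was 0.80 on the log2 scale.

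The genes called between pupae and larvae were set beside their levels in the other stages. Of the 2328 genes called higher in pupae, 1577 (67.7%) had their highest group mean in pupae, 423 (18.2%) in eggs, 225 (9.66%) in male adults and 103 (4.42%) in female adults. Over all 11440 genes the highest mean lay in eggs for 28.7%, in larvae for 17.7%, in pupae for 22.9%, in male adults for 21.3% and in female adults for 9.38%. Without larva replicate 1, the 3195 genes called higher and present in both fits divided into 1584 with their highest mean in pupae, 1050 (32.9%) in male adults, 441 in eggs and 120 in female adults. Genes called lower in pupae had their highest mean in larvae in 1447 of 2326 cases (62.2%), in eggs in 400 (17.2%), in male adults in 307 (13.2%) and in female adults in 172 (7.39%). For calls made without larva replicate 1, it lay in larvae for 1347 of 2194 such genes (61.4%). The median level of the 2326 genes was 7.69 CPM in pupae, against 65.4 CPM in larvae. It was 11.6 CPM in eggs, 31.8 CPM in male adults and 28.4 CPM in female adults. The adult and egg libraries had no part in the contrast, but pupae or larvae being the highest group follows in part from the call itself.

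The authors' own stage lists give a check of the labels, although they were chosen on these libraries and are no independent evidence. Genes of the pupal list took 23.02%, 21.3% and 18.1% of the counts of the pupal libraries, against 0.394%, 0.531% and 0.614% in larva replicates 1, 2 and 3. The larval list took 0.321% to 0.592% of pupal counts, against 19.7%, 17.1% and 16.2% in larva replicates 1, 2 and 3. Larva replicate 1 thus had the lowest share of the pupal list and the highest of the larval list. The male list had 61 of 175 genes at 1 CPM or more in larva replicate 1, against 12 and 22 in larva replicates 2 and 3, and 50 to 56 in the pupal libraries. Of the male list 16 of 169 tested genes (9.47%) were called higher in pupae with all libraries and 62 of 174 (35.6%) without larva replicate 1, where 20.3% and 27.8% of all genes were called higher. The female list had 16 genes called higher in both cases, of 86 and 87 tested, and the egg list 32, of 156 and 159. Genes called lower numbered 15 (9.62%) in the egg list, 13 (7.69%) in the male list and 12 (14.0%) in the female list, against 20.3% of all genes. They numbered 17 (10.7%), 11 (6.32%) and 11 (12.6%) without larva replicate 1, against 19.1% of all genes. With all libraries, the egg list had medians of 2.81 CPM in pupae and 1.69 CPM in larvae. These were 0.323 and 0.291 CPM in the male list and 1.03 and 0.607 CPM in the female list. Of all tested genes under 1 CPM, 12.5% were called higher and 9.91% lower, or 23.6% and 7.67% without larva replicate 1. Between 1 and 10 CPM, 17.04% and 16.6% were with all libraries. All genes together are thus no like base for these low lists.

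Within the lists the sizes of change differed widely. In the pupal list 255 of 480 tested genes were at least 64-fold higher in pupae, with a median log2 change of 6.31 and quartiles of 4.05 and 8.63. In the larval list 147 of 222 were at least 64-fold lower, with a median of -7.61 and quartiles of -10.1 and -5.31. Over all genes tested the median with bounds was 0.14. The medians were 6.36 and -7.51 without larva replicate 1, and the genes past 64-fold numbered 258 and 146. Of the pupal list 460 genes were called higher with all libraries and 451 without larva replicate 1, a net loss, although 5 of the 20 not called with all libraries were called without it.

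A few genes show the range of the change. They were named by a rule on abundance: the largest differences in mean CPM among genes called with and without larva replicate 1, with no overlap of library values and some counts in both stages. Their functions are not known from the tables, and their calls and the gap between the stages follow from this rule. CPM in the following values is scaled by TMM, and adjusted p-values are from edgeR over all genes tested.

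CAG9864232.1 was among the most abundant pupal genes, at 7984, 4753 and 4367 CPM in the pupal libraries, against 0.960, 0.870 and 9.05 CPM in the larval libraries. All pupal libraries were far above all larval ones, and larva replicate 3, not 1, was the highest of the larvae. Its log2 change was 10.60 ± 0.77 (SE, n = 3 a stage, adjusted p = 1.83e-05, edgeR), and 10.16 ± 0.76 without larva replicate 1 (adjusted p = 4.64e-05). The size depended on larva replicate 3: without that library the log2 change was 12.66 ± 0.54 (adjusted p = 2.60e-06, edgeR). The gene stood at 0.493 to 1.30 CPM in eggs and at 8.97 to 27.4 CPM in adults, so its high level was a pupal one among these libraries.

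CAH1164367.1 had 6397, 5534 and 3690 CPM in the pupal libraries, against 175, 73.6 and 6.16 CPM in the larval libraries. The stages were well apart, while the larval libraries covered a wide range, from the highest in replicate 1 to the lowest in replicate 3. The log2 change was 5.94 ± 0.98 (adjusted p = 0.00153, edgeR) and, without larva replicate 1, 7.05 ± 1.01 (adjusted p = 0.00137). Adults kept this gene on, at 309, 2107 and 537 CPM in males and 153, 53.2 and 407 CPM in females, whereas eggs had 0.468 to 0.633 CPM.

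CAG9865235.1 ranked 1 by mean CPM in larvae. It stood at 1173, 2094 and 3069 CPM in the pupal libraries, against 22918, 26239 and 29906 CPM in the larval libraries. All larval libraries were above all pupal ones, yet the gene still ranked 49 in pupae. Its log2 change was -3.64 ± 0.77 (adjusted p = 0.00370, edgeR), or -3.72 ± 0.87 without larva replicate 1 (adjusted p = 0.00464). The authors' mean TPM was 2502 in pupae and 22247 in larvae. Adults had 0.370 to 4.51 CPM and eggs 7.42 to 72.1 CPM.

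CAG9863593.1 was nearly shut off in pupae, with 77, 32 and 59 counts or 2.91, 1.24 and 1.95 CPM in the pupal libraries, against 17190, 12848 and 7042 CPM in the larval libraries. Its log2 change was -12.57 ± 0.86 (adjusted p = 1.98e-05, edgeR) and -12.24 ± 0.96 without larva replicate 1 (adjusted p = 3.30e-05). In adults it stood at 2.23 to 56.5 CPM and in eggs at 2.67 to 5.88 CPM, so that larvae held nearly all of it. These 4 genes belong to the authors' list for the stage where they were higher, and all were called under each of the 15 alternatives tried. Their adjusted p-values over these alternatives reached at most 0.00268, 0.0119, 0.0196 and 0.000325, in the order above. Being called with and without larva replicate 1 was part of the rule that chose them, so these calls largely follow from the choice.

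The most abundant genes held below 2-fold were CAG9855337.1 and CAG9858652.1. CAG9855337.1 had 3945, 3524 and 3575 CPM in the pupal libraries, against 4268, 5247 and 3124 CPM in the larval libraries. The stages overlapped, and the log2 change was -0.19 with a 95% interval from -0.76 to 0.37, or from -0.82 to 0.48 without larva replicate 1. CAG9858652.1 had 2221, 2375 and 2669 CPM in the pupal libraries, against 3301, 3545 and 2337 CPM in the larval libraries, which also overlapped. Its log2 change was -0.34, with an interval from -0.93 to 0.25 with all libraries and from -0.95 to 0.42 without larva replicate 1. Over the alternatives these intervals reached as far as -1.20 and -1.22, so the bound of 2-fold did not hold under each of them.

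A pair of genes was chosen for being uncalled with all libraries and high in larva replicate 1 alone among larvae, so their calls with and without that library follow from the choice and are given as examples. CAG9861871.1 had 487, 245 and 231 CPM in the pupal libraries, against 501 CPM in larva replicate 1 and no count in larva replicates 2 and 3. Male adults had 452, 853 and 650 CPM, and female adults and eggs 0 to 0.576 CPM. With all libraries its log2 change was 0.94 ± 1.92 (adjusted p = 0.715, edgeR). Without larva replicate 1 its mean over the pupal libraries, 328.6 CPM, was 4385 times a floor of 3 counts summed over larva replicates 2 and 3. That floor was 0.0749 CPM (adjusted p of the change = 5.86e-05, edgeR). The spread of the pupal libraries does not enter this fold. CAG9857017.1 had 868, 383 and 400.5 CPM in the pupal libraries, against 467, 0.687 and 0.789 CPM in the larval libraries. Its log2 change was 1.82 ± 1.57 (adjusted p = 0.378) with all libraries and 9.54 ± 0.71 (adjusted p = 2.37e-05) without larva replicate 1.

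**Figure D5:**
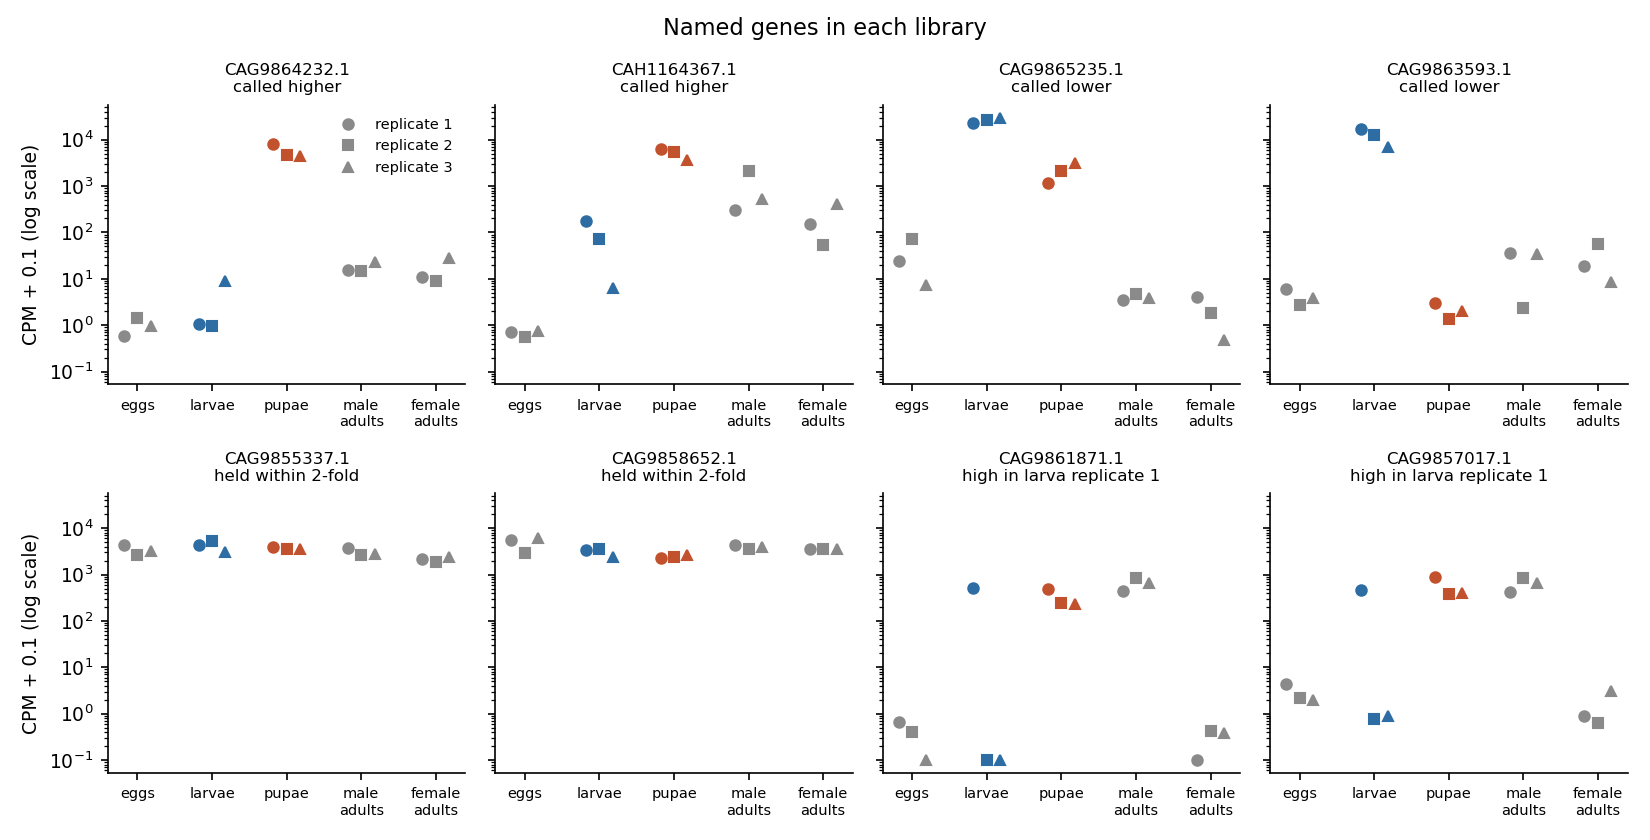
TMM-scaled CPM with 0.1 added (vertical, log scale) of the 8 named genes in every library of the 5 groups (horizontal); each point is 1 library, its shape gives the replicate number, pupae are red and larvae blue. The top row shows genes called higher or lower in pupae, with pupal and larval points apart; the bottom row shows genes held below 2-fold (left) and genes for which larva replicate 1 lies with the pupae and male adults while larva replicates 2 and 3 lie below 1 CPM (right).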

How the data were processed

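RNA-seq libraries from whole bodies were made with TRIzol extraction and a TruSeq RNA kit, per the labels' protocols. The authors deposited raw read counts for 11862 genes in each of 15 libraries; fastp, HISAT2 and featureCounts are named in the submitters' processing notes. For versions, strand setting and genome build, nothing is stated there. The authors also deposited group mean TPM, with no spread, and lists of stage-specific gene identifiers (unit: other, no values). Every count column was matched to a sample by its library name.

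Counts were filtered with filterByExpr (11440 genes kept, 422 dropped), scaled by TMM and fitted with edgeR 4.0.16 (R 4.3.3; robust quasi-likelihood, 5 groups, all libraries); the contrast was pupa minus larva. Standard errors and intervals were a separate Wald approximation, computed from the coefficients, weights and spread of the same fit. The p-values came from its quasi-likelihood test. DESeq2 1.42.0 served as an alternative, with other scalings, no filter, the 6 libraries alone, a replicate block and each replicate left out. The pipeline was also run on simulated data, and the outcome is not reported here. Shares of counts and detected genes used library totals; spread and positions used log2(CPM + 0.5). Shares have 95% Wilson half-widths of at most 0.0241 percentage points, covering counting error only.

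Without gene names, the rule named 2 genes called higher and 2 called lower with the largest difference in mean CPM (called with and without larva replicate 1, no overlap, at least 10 counts in the lower stage), the 2 most abundant genes with an interval within -1 and 1, and the 2 uncalled genes highest in larva replicate 1 among those under 1 CPM in the other larvae. Pathway and cell type lists by gene name could not be matched. The comparison, rules and lists were chosen with earlier results of these data known. Replicate pairs differed by at least 105 in chi-square per degree of freedom, so none was counted as a copy. The series' design text calls replicates biological, but no label names separate collections, so p-values may measure partly technical spread. Replicate numbers are shared by the stages, and the deviations of same-numbered pupal and larval libraries correlated at 0.636, 0.410 and 0.324 across genes, so the numbers were treated as pairing the libraries in the block. Some pairs of different numbers correlated nearly as well, at 0.296 for pupa 3 with larva 2 and 0.255 for pupa 2 with larva 3, and no label says what the numbers mark.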

Additional observations from a re-analysis of the deposited data

How the results depend on the processing

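Of 130 alternative values of the counts and medians, 122 stayed within 1.5 times the value reported. Their direction could not change, since counts have no sign and the medians are of genes already called higher or lower. Leaving out larva replicate 1 gave the exceptions among the calls. Genes at least 8-fold higher in pupae numbered 804 to 1624 over the fits that left out 1 replicate each, with 1624 without larva replicate 1. Alternatives added after the data were seen, all without larva replicate 1, gave 1548 with the DESeq2 Wald test, 1657 with library size alone and 1567 with only the remaining 5 libraries. Genes switched on in pupae, 85 with all libraries, numbered 87 to 517 when 1 replicate was left out, and with limits of 1 and 0.5 CPM 258 were switched on and 222 off. By the authors' mean TPM, 42 of the 100 most abundant genes were shared. The cause of these shifts was not tested. With the replicate block 2292 genes were called higher and 2235 lower in pupae, and it changed no call of a named gene and no count by over 1.5 times. By the DESeq2 Wald test 2211 were higher and 2642 lower. The authors' TPM put 31.4% of pupae in the pupal list and 25.9% of larvae in the larval list, above the shares of counts. With 2 larval libraries left, the calls given in the Results without larva replicate 1 rest on the spread of all groups. With only the remaining 5 libraries, 3101 genes were called higher and 2632 lower, in place of 3203 and 2197.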

Other observations

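Genes with consecutive identifier numbers tended to carry the same call. Of 1803 genes called higher in pupae whose next number was also tested, the next gene was called higher in 28.01% of cases and lower in 16.9%, where 20.3% of all genes were called in each direction. Of 1930 genes called lower, the next was called lower in 29.2% and higher in 15.5%. The longest run of consecutive numbers called the same way held 10 genes higher and 11 genes lower in pupae. Without larva replicate 1 the longest run called higher held 23 genes, runs of 5 or more numbered 22 in place of 8, and the next gene was called higher in 36.9% of cases, where 27.8% of all genes were. Whether consecutive numbers mark neighbours in the genome is not known from the files, and no test was made.

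The pupal libraries also differed in the genes that separated larva replicate 1 from the other larvae. The 1102 genes called higher only without that library had a median of 22.4 CPM in pupa replicate 1, against 14.6 and 14.3 CPM in pupa replicates 2 and 3, and the 517 genes on in pupae and off in larva replicates 2 and 3 took 6.44% of its counts, against 5.07% and 4.71%. These are values of 3 libraries with no test.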
